A study of Mus musculus with 18 samples.

Results

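Dermal dendritic cells that carry transcripts of Cd209a and Mgl2 were followed in mouse skin stretched by a subcutaneous expander and in control skin. They were chosen by their own transcripts, with a rule on UMIs (unique molecular identifiers, each standing for 1 counted transcript). Cells were kept from 500 UMIs and 200 detected genes upward, unless mitochondrial transcripts exceeded 10%. Of these, a member had H2-Aa, H2-Ab1, H2-Eb1 and Cd74 together at 1% or more of its UMIs and at least 2 UMIs of Cd209a and Mgl2 together. It also had fewer than 5 UMIs of C1qa, C1qb and C1qc, fewer than 3 of Ly6c2, Chil3, Plac8 and Msr1, and fewer than 2 each of Ccr7 plus Fscn1, of Xcr1 plus Clec9a, and of Cd207. No UMI of Cd3d, Cd3e or Cd3g was allowed. The rule gave 1575 members among 47251 kept cells, 1385 of them in control and 190 in expanded skin.

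Conventional dendritic cells of type 2 are bone marrow-derived antigen-presenting cells of the dermis. They take up material through C-type lectins, load peptides on MHC class II molecules and carry them to lymph nodes, where CD4+ T cells are primed. Cd209a encodes a mouse homologue of DC-SIGN, and Mgl2 encodes the lectin CD301b. In skin, cells with CD301b are known for their part in T helper type 2 responses. Mmp12 encodes macrophage metalloelastase, a protease that cleaves elastin. Skin also holds macrophages, monocytes and Langerhans cells that share several of these transcripts.

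Every mouse had surgery in which a path under the back skin was opened from near the tail to the neck. In the expanded arm a hydrogel expander was left under the skin near the neck, and in the control arm none was placed. Skin was dissected at day 1, 2 or 4 and digested, and live, DAPI-negative cells were collected by flow sorting. Each arm had 5 pooled mRNA libraries: day 1 rounds 1 and 2, day 2 rounds 1 and 2, and day 4 round 1, where a round is a sequencing round. The mice of an arm and round shared 1 tube, so arm and tube cannot be told apart within a round. In 8 of the 10 libraries, hashing antibodies marked the cells of each mouse, which gave 14 mice per arm (3 of day 1, 7 of day 2, and 4 at day 4). The strain, sex and age of the mice are not given in the labels used here. Surgical wounding is common to both arms, and no unoperated skin was analysed.

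The libraries held 17726739 to 75470722 gene UMIs and 1927 to 8312 kept cells. Members numbered 232 and 360 in the control libraries of day 1, 143 and 227 in those of day 2, and 423 in that of day 4. The expanded libraries held 45 and 79 members for day 1, 10 and 15 for day 2, and 41 for day 4. Summed members carried 185247 to 4363137 UMIs per library. No member barcode occurred in more than 1 library, whereas 263 kept barcodes did. The median member had 7741.5 to 11169 UMIs across control libraries and 9001 to 19242 across expanded libraries. Levels below are CPM, the UMIs of a gene per 1000000 summed UMIs of the members of a library, and ± is the SD over 5 libraries.

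The rule itself set the levels of its own genes, which are given here as a description. Mgl2 stood at 1681 ± 396 CPM in control members and 1454 ± 329 CPM in expanded members, and Cd209a at 763 ± 166 and 476 ± 231 CPM. H2-Ab1, a chain of the MHC class II molecule I-A, stood at 13090 ± 1832 and 13780 ± 2096 CPM. Between 72.1% and 91.0% of the members of a control library held UMIs of both lectins, and between 60.0% and 91.1% of those of an expanded library. Mgl2 alone was seen in 6.90% to 27.0% of control members and in 0% to 20.3% of expanded members. Cd209a alone was seen in 0.946% to 2.50% of control members and in 2.22% to 33.3% of expanded members. At the threshold, 80 cells had 1 UMI of the lectins and met every other condition, with a median of 3147 UMIs. The 78 members with exactly 2 lectin UMIs had a median of 3947. Pooled Mmp12 was 328 CPM in the former and 543 CPM in the latter.

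Genes the rule did not use were compared with the label. Control members expressed Irf4, a transcription factor of type 2 dendritic cells, at 96.0 ± 18.3 CPM, and Itgax, which encodes CD11c, at 67.7 ± 18.9 CPM. Flt3, the receptor for the dendritic cell growth factor FLT3 ligand, stood at 34.96 ± 23.3 CPM and Zbtb46, a factor of the conventional dendritic lineage, at 21.1 ± 6.07 CPM. In MHC class II cells over the C1q limit (5 UMIs) and over no other limit (C1q cells), Flt3 stood at 0.715 CPM and Zbtb46 at 3.51 CPM in control skin. Irf4, Itgax and Dpp4 (27.3 CPM in control members) stood at 60.3, 20.5 and 4.43 CPM there. Clec10a and Sirpa went the other way, at 153 and 146 CPM in control members against 367.5 and 251 CPM in C1q cells. Control MHC class II cells over the Ccr7 and Fscn1 limit alone had more Flt3 (86.3 CPM), Zbtb46 (60.9), Irf4 (120) and Dpp4 (41.0) than control members. They had less Itgax (50.6), Clec10a (139) and Sirpa (96.1). F13a1, the clotting factor XIII A chain found in dermal macrophages, was at 83.3 ± 30.8 CPM in control members against 873 CPM in C1q cells. The lectin receptor Mrc1 (796 ± 82.3 CPM) and the haemoglobin scavenger receptor Cd163 (206 ± 113 CPM), both used as macrophage markers, were also present in control members. Ccr2, the receptor that brings monocytes and their descendants into tissue, stood at 249 ± 51.4 CPM. The members thus carried dendritic transcripts together with some that macrophages share, and sequence similarity may split reads between close copies such as Mgl2 and Clec10a.

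The members made up a smaller share of the cells in expanded skin at each day. They were 3.98% and 4.33% of kept cells in the control libraries of day 1, 6.54% and 3.88% in those of day 2 and 5.63% in that of day 4. In expanded libraries they were 1.52% and 1.34% at day 1, 0.295% and 0.778% at day 2, then 1.20% at day 4. The arms did not overlap, and the expanded library was lower in 5 of 5 pairs of the same day and round. The mean share fell from 4.88% ± 1.17 to 1.03% ± 0.493 (SD, n = 5 libraries per arm), a ratio of 4.74. A two-sided exact permutation test gave p = 0.00794 (Benjamini-Hochberg adjusted 0.00794), the smallest that 5 against 5 libraries allow. With the day-and-round pairs as blocks, exact sign flips gave p = 0.0625, which is the smallest that 5 pairs allow.

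**Figure D1:**
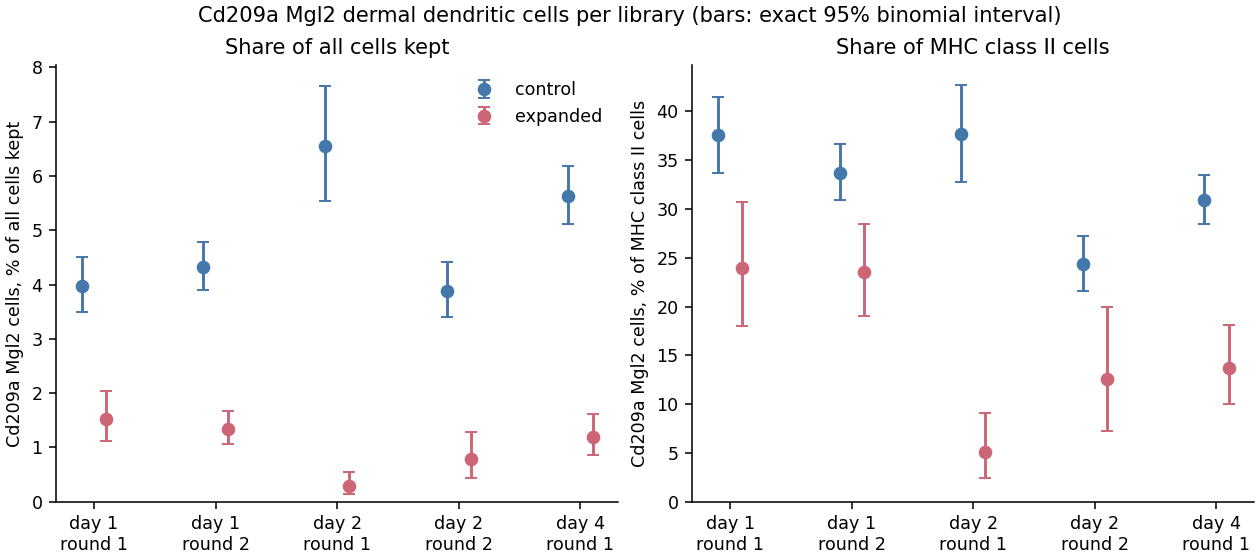
Share of Cd209a Mgl2 dermal dendritic cells among all kept cells (left, %) and among MHC class II cells (right, %) in each library, by day and sequencing round; points are libraries and bars are exact 95% binomial intervals, which cover counting error only. The 5 expanded libraries lie between 0.295% and 1.52% of kept cells and the 5 control libraries between 3.88% and 6.54%.

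Among cells with MHC class II transcripts at 1% of UMIs or more and no Cd3 UMI, the members' share also fell. It was 37.5%, 33.7%, 37.6%, 24.3% and 30.9% in the control libraries, in the order of day and round, and 23.9%, 23.5%, 5.05%, 12.6% and 13.7% in the expanded libraries. The lowest control library (day 2 round 2) was close to the highest expanded library (day 1 round 1), without overlap. The means were 32.8% ± 5.52 and 15.8% ± 8.00 (exact permutation test, p = 0.00794, adjusted 0.00794; lower in 5 of 5 pairs; p = 0.0625 with the pairs as blocks). All members, with or without a Ptprc UMI (CD45, the general leukocyte marker), were also counted relative to the cells with a Ptprc UMI. This denominator was added after the data were seen. The members' number was 17.8% ± 3.97 of the number of these cells in control and 3.34% ± 2.59 in expanded skin (exact permutation test, p = 0.00794). A share shows the make-up of a library only: fewer members and more cells of other kinds cannot be told apart.

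The other MHC class II cells also differed between the arms in the limits they were over. Among those with at least 2 UMIs of Cd209a and Mgl2, 3.25% to 24.1% of the cells of a control library were over the limit for the monocyte transcripts Ly6c2, Chil3, Plac8 and Msr1. In expanded libraries the range was 22.2% to 59.4%. Cells without a Ptprc UMI, taken as a rough background here and below, were over that limit in 0.920% to 6.42% of cases. They may include leukocytes in which Ptprc was missed. Per library, 0.0918% to 2.55% of them held at least 2 UMIs of Cd209a and Mgl2. The ranges of the arms overlapped, and the expanded library was higher in each pair. The limits are fixed numbers of UMIs, and depth differed as well. Cells with at least 2 lectin UMIs had a median of 7669 to 11873 UMIs in control and 9771.5 to 24536 UMIs in expanded libraries, higher in each pair. The part of depth in these percentages was not tested. On day 2, 131 of 380 and 127 of 933 MHC class II cells of the control libraries were over the C1q limit alone, against 3 of 198 and 2 of 119 in the expanded libraries. When the monocyte condition was dropped, an alternative chosen after seeing the data, members were 36.4% ± 2.33 of MHC class II cells in control skin and 26.6% ± 5.04 in expanded skin (exact permutation test, p = 0.00794). The difference was then -9.80 percentage points, against -17.1 with the condition. Fewer such cells and a change of these transcripts within them cannot be told apart. With the full rule, thinning each cell to 2000 UMIs gave 39.9% ± 1.94 and 25.5% ± 8.07 (exact permutation test, p = 0.00794). The ratio of the means was 1.56, against 2.08 unthinned. Thinned control libraries held 40.4%, 38.8%, 43.0%, 38.7% and 38.4%, in the order of day and round. Expanded ones held 37.4%, 30.1%, 17.6%, 21.7% and 20.9%, so the arms were close on day 1 round 1. Of kept cells, thinned members were 6.42% ± 1.58 and 1.79% ± 0.501, a ratio of 3.58 against 4.74 unthinned.

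**Figure D2:**
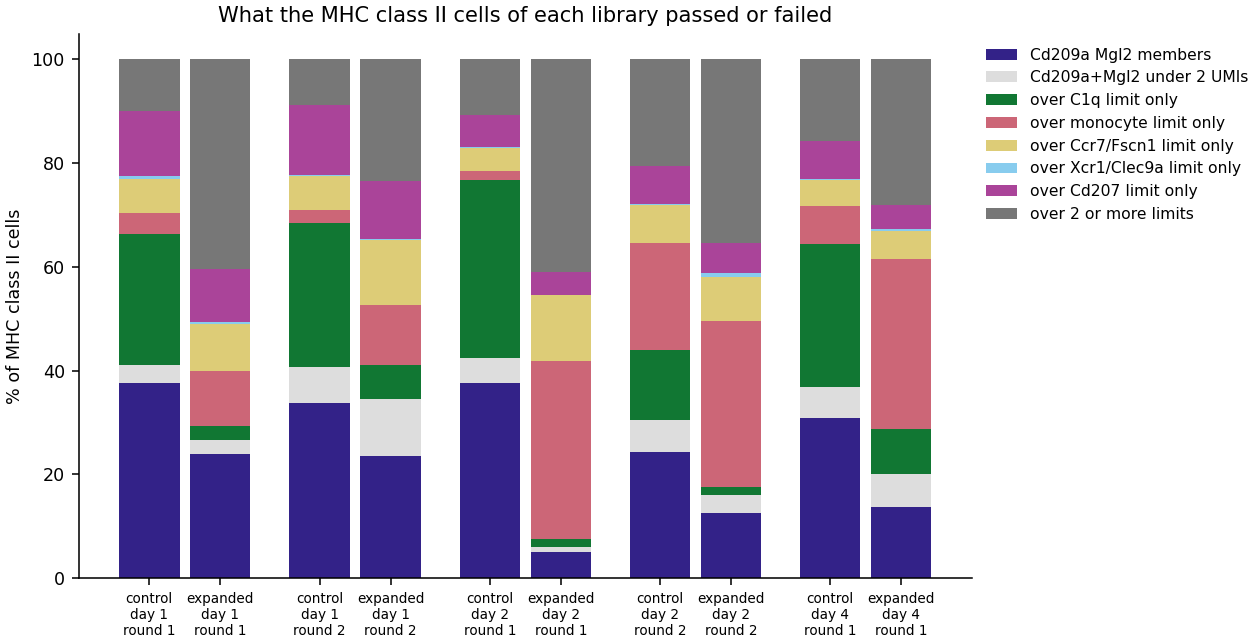
Make-up of the MHC class II cells of each library (% of these cells), split into members, cells with under 2 lectin UMIs, cells over a single limit and cells over several; every bar is 1 library and sums to 100%. The member band is 24.3% to 37.6% in control and 5.05% to 23.9% in expanded libraries, and the band over the monocyte limit alone widens in each expanded bar.

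Hashed mice gave the comparison with animals as replicates. Among cells with a Ptprc UMI that were assigned to 1 mouse, members were 18.2% ± 7.13 in 14 control mice (7.23% to 34.8%, median 16.1%) and 3.10% ± 3.69 in 14 expanded mice (0.245% to 14.1%, median 2.24%). The arms overlapped through 1 expanded mouse of day 1 at 14.1%, which lay above the lowest control mice of day 2 but below the control mice of its own day. A two-sided permutation test within day and round gave p = 1e-05, the smallest that 100000 resamples can give. On day 1 the mean was 17.8% ± 4.51 in 3 control mice and 6.66% ± 6.43 in 3 expanded mice (exact permutation test, p = 0.1, the smallest possible). On day 2 it was 15.6% ± 6.78 and 1.498% ± 1.79 in 7 mice each (exact permutation test, p = 0.00143). On day 4 the mean was 22.9% ± 8.28 and 3.22% ± 2.52 in 4 mice each (exact permutation test, p = 0.0286, the smallest possible). Leaving out any 1 mouse kept the difference between -15.9 and -13.8 points. The mice of an arm and round were pooled before capture, so they share a reaction.

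**Figure D3:**
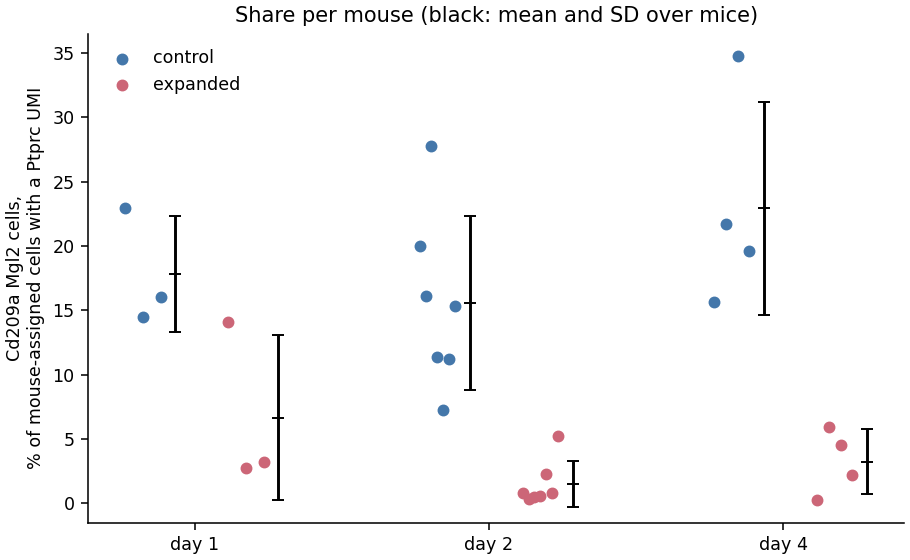
Members as a share of mouse-assigned cells with a Ptprc UMI (%), by day; each coloured point is 1 mouse, and the black marks are the mean and SD over mice. Control mice span 7.23% to 34.8% and expanded mice 0.245% to 14.1%.

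Gene levels were then compared within the members. UMIs were summed per library and tested by edgeR (quasi-likelihood, adjusted for day) in the 5 control and 3 expanded libraries with at least 20 members (the 8-library fit); the expanded libraries of day 2 fell below that number. Of 8946 genes outside the rule, 320 (3.58%) passed a Benjamini-Hochberg adjusted p of 0.05, 69 (0.771%) higher and 251 (2.81%) lower in expanded members. This count depended on single libraries. Without the control or the expanded library of day 4, 0 genes passed in edgeR, although 1363 and 1667 had an unadjusted p under 0.05, and DESeq2 passed 419 genes on all 8 libraries. For the genes named below the adjusted p was then 0.0670 to 0.250 without the control library and 0.0652 to 0.285 without the expanded library of day 4, so none kept its call there. A fit of all 10 libraries with at least 10 members, added after seeing the data, passed 646 of 6744 genes (9.58%; 255 higher, 3.78%; 391 lower, 5.80%), and 258 to 862 when each library was left out. Where a gene was tested there, its adjusted p is given as the value with 10 libraries. When the 8-library fit was blocked on day and round, which left 3 complete pairs, 1022 genes (11.4%) passed, 298 higher (3.33%) and 724 lower (8.09%). Over 5 against 5 libraries, the levels of 110 of the 251 genes that fell and 33 of the 69 that rose did not overlap between arms; among all genes tested, 2.44% lay wholly below and 4.02% wholly above control. Of the 44 genes named by rule, 18 lost their call with sums per mouse, which rest on 2 expanded mice. Without the monocyte condition 7 lost it and 1 changed sign.

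Several secreted mediators were lower in expanded members. Of 24 tested genes of the list of secreted chemokines and cytokines, 7 fell and 0 rose (2.81% and 0.771% over all genes). The list's median log2 difference was -0.87, against 0.00 over all genes tested. The 4 with the smallest p were Ccl6, Il1rn, Cxcl3 and Ccl9, and the others were Areg, Cxcl1 and Hbegf, which are named after their values were seen. Il1rn encodes the antagonist of the interleukin-1 receptor. Its level was 332, 384, 323, 232 and 368 CPM in the control libraries and 94.1, 144, 119, 125 and 107 CPM in the expanded ones, in the order of day and round. The arms did not overlap, and the log2 difference was -1.84 ± 0.26 (SE; adjusted p = 0.00973, and 0.000658 with 10 libraries). Il1b, the agonist at the same receptor, stood at 1860 ± 496 and 2994 ± 817 CPM (log2 difference 0.48, adjusted p = 0.348). With 10 libraries Ccl3, a chemokine for monocytes and T cells, rose (log2 difference 1.07, adjusted p = 0.0123).

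Cxcl3 and Cxcl1 encode chemokines that attract neutrophils through CXCR2. Cxcl3 stood at 189, 335, 333, 245 and 224 CPM in control members and at 17.8, 72.0, 5.40, 67.1 and 27.7 CPM in expanded members. All 5 expanded libraries lay below all 5 control libraries. The log2 difference was -2.86 ± 0.43 (adjusted p = 0.0113, and 0.00140 with 10 libraries). Cxcl1 stood at 565, 487, 327, 359 and 886 CPM in control members and at 4.87, 88.9, 151, 6.39 and 279 CPM in expanded members (log2 difference -2.99 ± 0.61; adjusted p = 0.0255, and 0.00983). Cxcl1 stood at 592 CPM in control cells without a Ptprc UMI, above its mean in members, and at 759.5 CPM in expanded ones. Cxcl3 stood at 6.87 and 77.3 CPM there, higher in expanded skin. Cxcl2, the most abundant of the 3, stood at 7132 ± 772 and 4841 ± 3369 CPM and did not pass (log2 difference -1.22, adjusted p = 0.0583).

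The promoters of Cxcl1 and Cxcl3 lie on the same stretch of mouse chromosome 5 and are shown because both genes fell and both hold a motif of GGG, any 2 bases and TTTCC, a pattern bound by NF-kappaB factors, within 300 bases around the start. In capitals are all matches on either strand. Each stretch has 100 bases, read 5′ to 3′ on the plus strand from RefSeq's promoter table for GRCm38.p6 (chr5:90891120-90891219 for Cxcl1 and chr5:90785983-90786082 for Cxcl3).
Cxcl1: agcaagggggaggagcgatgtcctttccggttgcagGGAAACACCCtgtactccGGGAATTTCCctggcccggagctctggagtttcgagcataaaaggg
Cxcl3: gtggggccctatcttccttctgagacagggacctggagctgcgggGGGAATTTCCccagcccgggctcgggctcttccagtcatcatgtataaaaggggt
Cxcl1 had 2 matches and Cxcl3 had 1. Of all 32851 promoters of the table, 1.63% held the motif. Of the 24 tested genes of the list, 16 had a promoter in the table and 6 held a match. Of the 7 genes that fell, 6 had a promoter in the table and 4 held a match (Ccl9, Cxcl1, Cxcl3 and Il1rn). Among the genes that did not pass, Cxcl2 and Il6 held one. Any part of the motif in the lower levels was not tested.

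Ccl9 and Ccl6 encode related CC chemokines of myeloid cells that act on CCR1. Ccl9 stood at 437, 544, 348, 293 and 479 CPM in control members and at 287, 136, 135, 112 and 143 CPM in expanded members. Here the expanded library of day 1 round 1 came close to the lowest control library, without overlap (log2 difference -1.58 ± 0.29; adjusted p = 0.0186, and 0.00140 with 10 libraries). Ccl6 ranged from 188 to 516 CPM in control and from 3.19 to 254 CPM in expanded members (log2 difference -1.74 ± 0.21; adjusted p = 0.00612, and 0.0431). It was lower in 4 of 5 pairs, the exception being day 2 round 1. Without the monocyte condition the log2 difference was -0.82 (adjusted p = 0.163), with sums per mouse the adjusted p was 0.297, and in the 10-library fit Ccl6 passed in 3 of 10 leave-outs (adjusted p up to 0.131). Ccl9 had a log2 difference of -0.96 without the monocyte condition (adjusted p = 0.0505). The growth factors Areg and Hbegf, ligands of the epidermal growth factor receptor, fell by 3.05 and by 1.54 on the log2 scale (adjusted p = 0.0187 for Areg and 0.0255 for Hbegf). With 10 libraries Areg no longer passed (adjusted p = 0.130) and Hbegf did (0.00644).

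Retnla, which encodes a secreted protein induced by interleukin-4 and interleukin-13, was nearly absent from expanded members. It stood at 19.8 and 20.2 CPM in control members of day 1, at 393 and 124 CPM in those of day 2 and at 443 CPM in those of day 4. It was 0 in the 4 expanded libraries of days 1 and 2 and 7.92 CPM on day 4. The arms did not overlap (log2 difference -6.10 ± 0.83; adjusted p = 0.00931, and 0.000148 with 10 libraries). The transcript sat in few cells: 52 of 1385 control members held a UMI, and 20 of them held 94.1% of the 2882 Retnla UMIs. In expanded skin 1 of 190 members held a UMI. With sums per mouse the adjusted p was 0.353, and after thinning to 2000 UMIs it was 0.0640. Of 13 tested genes of the type 2 list Retnla alone passed, a share near the 3.58% of all genes. Mrc1 stood at 796 ± 82.3 and 747 ± 165 CPM (log2 difference -0.18, adjusted p = 0.655).

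Of 20 tested interferon-response genes, 3 fell and 0 rose in the 8-library fit (2.81% and 0.771% over all genes), with a median log2 difference of -0.62. That fit lacks the expanded libraries of day 2. With 10 libraries 1 of 10 tested genes fell and 0 rose (5.80% and 3.78% over all genes). Cxcl9, a chemokine for T cells induced by interferon-gamma, stood at 6.08 to 63.4 CPM in control members and at 0 to 3.96 CPM in expanded members (537 against 3 UMIs, a ratio of 30.3 with an exact 95% interval of 10.3 to 147; adjusted p = 0.0103). Only 93 of 1385 control members held a Cxcl9 UMI, and 20 of them held 71.5% of the 537 UMIs. The interval covers counting error only and leaves out this spread between cells. With sums per mouse the edgeR adjusted p was 0.265, and Cxcl9 was not tested with 10 libraries. The GTPase Gbp2 stood at 28.5 to 187 and 4.23 to 57.5 CPM (log2 difference -2.63 ± 0.36; adjusted p = 0.00931, and 0.0274 with 10 libraries). The GTPase Iigp1 had 200 and 3 UMIs (ratio 11.3, interval 3.80 to 55.1; adjusted p = 0.0271) and was lower in 3 of 5 pairs. Gbp2 and Iigp1 were higher in control cells without a Ptprc UMI, at 192 and 173 CPM, than in control members. Isg15, a ubiquitin-like protein induced by interferon, did not pass (log2 difference -1.11, adjusted p = 0.152; -0.08 with 10 libraries, adjusted p = 0.944). On day 2 it stood at 77.8 and 37.8 CPM in control and at 173 and 156.5 CPM in expanded members. Bst2, the antiviral protein tetherin, stood at 52.4 and 85.3 CPM against 178 and 224 CPM on that day, and Oasl2 at 2.31 and 1.51 against 86.4 and 44.7 CPM. These 3 genes were thus higher in the expanded libraries of day 2, and Isg15 and Bst2 were lower in those of days 1 and 4; they are named after their values were seen. With 10 libraries no gene passed the test of a difference between days, in which Oasl2 was not tested.

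Within antigen presentation, 2 of 16 tested genes rose and 1 fell (0.771% and 2.81% over all genes). Ciita, the coactivator that switches on MHC class II genes, stood at 44.5, 47.8, 54.7, 87.2 and 55.9 CPM in control members. In expanded members it stood at 198, 150, 238, 160 and 125 CPM, above every control library (log2 difference 1.47 ± 0.23; adjusted p = 0.0118, and 0.00119 with 10 libraries). After thinning to 2000 UMIs, 10.1% of control and 27.6% of expanded members held a Ciita UMI, against 0.238% and 0.215% of cells without a Ptprc UMI. Unthinned, the shares of members were 34.2% and 78.8%. March1, a ubiquitin ligase that removes MHC class II and CD86 from the surface, rose from 23.6 ± 5.24 to 62.0 ± 24.1 CPM, in 4 of 5 pairs (log2 difference 1.62 ± 0.25; adjusted p = 0.0118, and 0.0103). The endosomal protease Ctsl fell (log2 difference -1.36 ± 0.31; adjusted p = 0.0427, and 0.00669). Ctsl was higher in control cells without a Ptprc UMI, at 742 CPM, than in control members, at 120 CPM. Among members under 0.5% fibroblast UMIs its adjusted p was 0.146. The peptide-loading genes H2-DMa and H2-DMb1 and the co-stimulatory gene Cd86 did not pass (adjusted p = 0.928, 0.131 and 0.808). MHC class II transcripts were part of the rule, so their levels could not be tested.

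Of 16 tested matrix and protease genes, 8 fell and 1 rose in the 8-library fit (2.81% and 0.771% over all genes). Their median log2 difference was -1.13. With 10 libraries 5 of 14 fell and 3 rose (5.80% and 3.78% over all genes). The fibroblast markers fell beside them. Among members under 0.5% fibroblast UMIs, Mmp2, Timp3, Thbs1 and Timp2 no longer passed (adjusted p = 0.104, 0.385, 0.0609 and 0.157). Mmp12, used as a marker of these cells but not by the rule, stood at 640, 737, 513, 930 and 796 CPM in control members. It stood at 216, 357, 103, 693 and 483 CPM in expanded members, lower in 5 of 5 pairs, with overlapping arms. The log2 difference was -1.28 ± 0.26 (adjusted p = 0.0259), and with 10 libraries the gene no longer passed (adjusted p = 0.0628). Thinned to 2000 UMIs, 48.5% of control and 24.8% of expanded members held an Mmp12 UMI (64.1% and 52.7% unthinned), against 0.357% and 0.394% of cells without a Ptprc UMI. Mmp19, another metalloproteinase, fell from 476 ± 109 to 143 ± 104 CPM (log2 difference -2.42 ± 0.35; adjusted p = 0.00973, and 0.00537), in 4 of 5 pairs.

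Fn1, which encodes fibronectin, stood at 271, 263, 257, 252 and 515 CPM in control and at 53.5, 19.8, 5.40, 16.0 and 145 CPM in expanded members, with no overlap. Its log2 difference was -2.67 ± 0.34 (adjusted p = 0.00701, and 0.000378 with 10 libraries). Cells without a Ptprc UMI had Fn1 at 354 CPM in control and at 98.5 CPM in expanded skin, lower as in the members. Among members under 0.5% fibroblast UMIs the log2 difference was -2.63 (adjusted p = 0.00645). Without the monocyte condition it was -1.46 and did not pass (adjusted p = 0.0586), and with sums per mouse the adjusted p was 0.145. The protease inhibitor Timp2 also fell (log2 difference -1.52 ± 0.26; adjusted p = 0.0150, and 0.00872), with 1831 CPM in cells without a Ptprc UMI against 247 CPM in control members. Tgfbi, an extracellular matrix adaptor protein that monocytes and dendritic cells also express, was the gene of the list that rose. It stood at 505, 481, 393, 498 and 430 CPM in control members and at 1701, 1677, 1565, 837 and 746 CPM in expanded members. All 5 expanded libraries were above the control libraries (log2 difference 1.26 ± 0.22; adjusted p = 0.0150, and 0.00141).

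Among 16 tested genes of lipid handling and lysosomes, 4 fell and 1 rose (2.81% and 0.771% over all genes). Abca1, the cholesterol exporter, fell from 161 ± 64.0 to 61.0 ± 36.4 CPM (log2 difference -1.43 ± 0.26; adjusted p = 0.0186, and 0.00279 with 10 libraries). Npc2, a lysosomal cholesterol carrier, fell from 1092 ± 161 to 621 ± 119 CPM without overlap (log2 difference -0.87 ± 0.20; adjusted p = 0.0409, and 0.00190). Apoe fell (log2 difference -1.33 ± 0.29; adjusted p = 0.0356, and 0.0343) and stood at 1721 CPM in control cells without a Ptprc UMI against 346 CPM in control members. The gene that rose was Fabp5, a carrier of fatty acids. Its level was 126, 121, 106, 402 and 236 CPM in control members and 516, 628, 400, 949 and 1180 CPM in expanded members. Only the control library of day 2 round 2 reached the expanded range (log2 difference 2.06 ± 0.35; adjusted p = 0.0150, and 0.00471). In cells without a Ptprc UMI, Fabp5 stood at 202 CPM in control and at 638 CPM in expanded skin. Its level there moved the same way by a similar factor. The part of RNA from other cells in the rise was not tested. Vegfa, the angiogenic growth factor, was the only 1 of 21 tested genes of glycolysis and hypoxia that passed, a share near the 3.58% of all genes. It fell from 83.5 ± 22.8 to 23.9 ± 10.0 CPM (log2 difference -2.26 ± 0.37; adjusted p = 0.0128, and 0.00253).

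Besides Fabp5, the 12 genes with the largest positive differences among genes that passed, ran the same way in 5 of 5 pairs, reached 20 CPM in an arm and were outside stromal and blood cell markers were Ffar2, I830077J02Rik, Prune2, Cd72, Cdh1, Cd69, Htr7, Cldn1, Espl1, Hhex and Pmvk. A rise in 5 of 5 pairs was a condition for naming them. All 12 passed with 10 libraries as well, a fit that shares 8 libraries with the first. Ffar2 encodes a receptor for short-chain fatty acids. It stood at 0.380, 1.06, 2.31, 14.3 and 3.67 CPM in control members and at 8.11, 28.2, 59.4, 54.3 and 97.0 CPM in expanded members, from 61 and 102 UMIs. The lowest expanded library lay below the highest control library (log2 difference 4.48 ± 0.63; adjusted p = 0.00973, and 0.00140). I830077J02Rik stood at 4.25 to 10.0 CPM in control and at 35.3 to 95.8 CPM in expanded members (log2 difference 2.56 ± 0.31; adjusted p = 0.00612, and 9.04e-05). Cd72, a co-receptor known from B cells and present on dendritic cells, and Cd69, an early activation marker of leukocytes, rose by 2.35 ± 0.46 and 2.28 ± 0.46 on the log2 scale (adjusted p = 0.0215 for Cd72 and 0.0245 for Cd69). Htr7, a serotonin receptor, rose from at most 14.7 CPM to at least 29.7 CPM (log2 difference 2.02 ± 0.35; adjusted p = 0.0150, and 0.00140). Hhex, a homeobox factor, and Pmvk, an enzyme of cholesterol synthesis, rose by 1.53 ± 0.22 and 1.52 ± 0.28 (adjusted p = 0.00973 for Hhex and 0.0185 for Pmvk).

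Cdh1 and Cldn1 encode the epithelial adhesion molecules E-cadherin and claudin-1, which Langerhans cells also carry. Cdh1 stood at 28.9, 18.4, 13.9, 78.5 and 28.9 CPM in control and at 107, 158, 210.5, 163 and 162 CPM in expanded members (log2 difference 2.30 ± 0.43; adjusted p = 0.0193, and 0.00175 with 10 libraries). Epcam, a Langerhans cell marker, rose with it (log2 difference 1.44, adjusted p = 0.0295), and the summed level of 5 Langerhans cell markers was 53.1 to 259 CPM in control and 119 to 942 CPM in expanded members. At least 2 Epcam UMIs were present in 8.61% to 33.1% of the members of a control library and in 21.5% to 63.4% of those of an expanded one. Of the 5 markers, 1 of 4 tested rose. Cd207, the defining Langerhans cell gene, was limited by the rule and stood at 7.26 ± 2.53 and 11.6 ± 5.02 CPM. In an alternative chosen after seeing the data, members with no Cd207 UMI and fewer than 2 Epcam UMIs were fitted. With at least 20 members per library, which left out the expanded library of day 4, 0 of 9219 genes passed in edgeR (1314 at an unadjusted p under 0.05). With at least 10 members per library, 71 of 8252 passed. In the latter, all 12 of the highest genes kept a positive difference and 1 of them (Ffar2) passed. Cdh1 then had a log2 difference of 2.01 (adjusted p = 0.0517) and Cldn1 of 0.86 (adjusted p = 0.337), while Ciita (1.42, adjusted p = 0.0230) and Tgfbi (1.24, adjusted p = 0.0395) passed. In cells without a Ptprc UMI, Cdh1 stood at 24.4 CPM in control and 59.8 CPM in expanded skin, and Cldn1 at 33.0 and 49.8 CPM. Cldn1 stood at 23.85 CPM in control members. Of 9 tested keratinocyte markers 1 rose and 0 fell, and Dmkn went from 72.6 ± 21.8 to 208 ± 105 CPM in members. The summed level of the 10 markers was 117 to 601 CPM in control and 105 to 1027 CPM in expanded members. How much Langerhans cell or keratinocyte RNA contributes to the genes that rose was not tested.

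**Figure D4:**
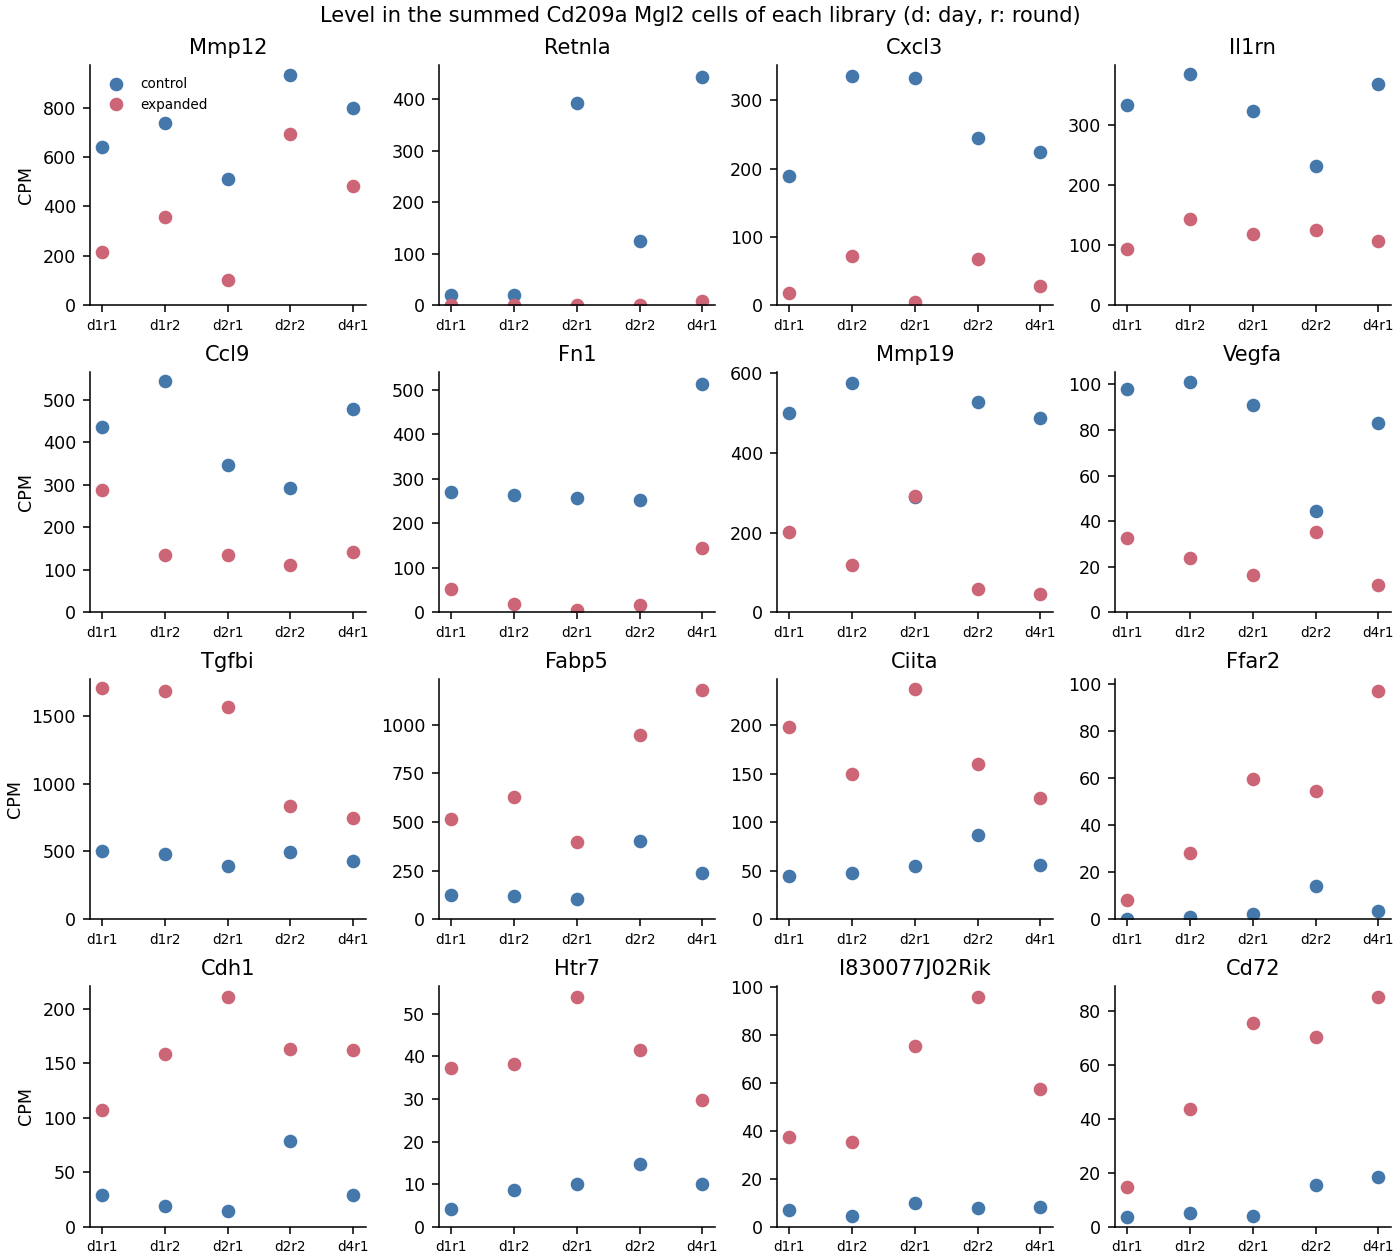
Level (CPM of summed members, linear axes starting at 0) of 16 named genes in each library, ordered by day (d) and round (r); each point is 1 library. Il1rn, Cxcl3, Ccl9, Fn1, Retnla and Vegfa lie lower in the 5 expanded libraries than in the 5 control ones, and Ciita, Tgfbi, Cdh1, Htr7 and I830077J02Rik lie higher, while the arms overlap for Mmp12, Mmp19, Fabp5, Ffar2 and Cd72.

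By the same conditions, which leave out fibroblast markers such as Col1a1, the 12 genes with the largest negative differences were Mfap4, Adamts4, Clec3b, Bgn, Adamts2, Pcolce2, Rian, Retnla, Aebp1, Lpar1, Has1 and Fbln2. Apart from Retnla these are genes of connective tissue cells: Bgn encodes the proteoglycan biglycan, Fbln2 the matrix protein fibulin-2 and Has1 a hyaluronan synthase. All 11 stood at a lower level in control members than in control cells without a Ptprc UMI, which include fibroblasts. Mfap4, a protein of elastic fibres, had 690 UMIs in control and 0 in expanded members, at least 38.9-fold lower against a floor of 3 counts over the expanded arm. Clec3b had 534 and 0 UMIs, at least 30.1-fold lower. Adamts2, a collagen-processing protease, had 682 UMIs and 1 UMI, a ratio of 115 with an interval of 20.6 to 4563.

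Fibroblast transcripts themselves moved with the arm. Of 10 fibroblast markers, all 9 that were tested fell. Col1a1, a chain of type I collagen, stood at 5823, 1471, 166, 545.5 and 1941 CPM in control members and at 84.3, 22.6, 5.40, 3.19 and 7.92 CPM in expanded members. The summed level of the 10 markers was 589 to 20420 CPM in control and 44.7 to 294 CPM in expanded members. In cells without a Ptprc UMI, Col1a1 stood at 25940 CPM in control skin. At least 0.5% fibroblast marker UMIs were found in 84 of 1385 control members and in 0 of 190 expanded members. Of the 69 genes that rose, 24 were lower in control members than in control cells without a Ptprc UMI. Of the 251 genes that fell, 152 were lower in control members than in those cells, and 99 were not. The latter include Il1rn, Cxcl3, Ccl6, Ccl9, Retnla, Mmp12, Mmp19, Abca1 and Npc2. When members at or over 0.5% fibroblast UMIs were left out, a choice made after seeing the data, 174 of 8612 genes passed (2.02%; 42 higher, 0.488%; 132 lower, 1.53%). Of the 99 genes, 95 passed there; of the 69 that rose, 39 did and all 69 kept their direction.

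**Figure D5:**
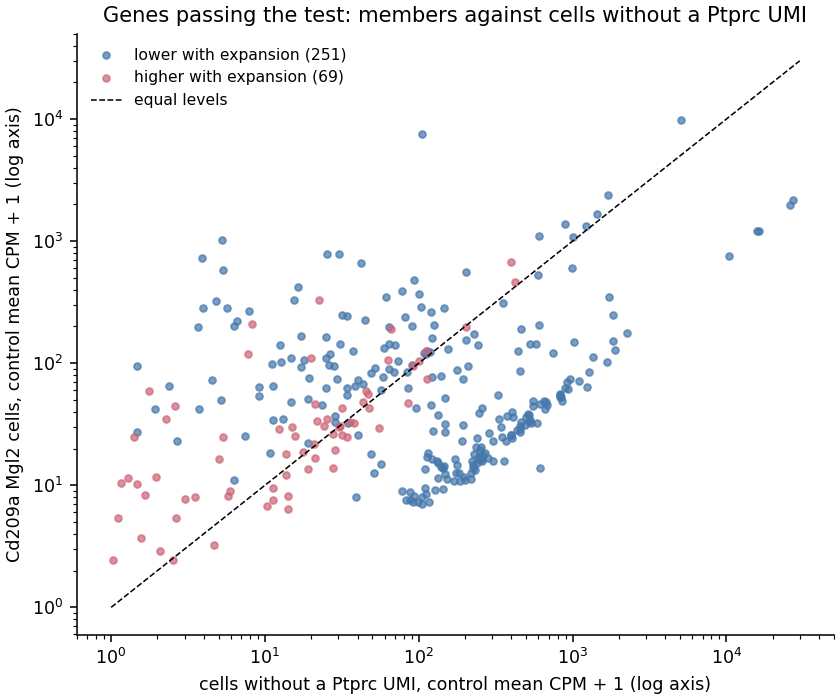
Level of each gene that passed the test in control members (vertical, mean CPM + 1, log axis) against its level in control cells without a Ptprc UMI (horizontal, mean CPM + 1, log axis); blue points fell (251) and red points rose (69) in expanded members, and the dashed line marks equal levels. A band of blue points runs below the line, part of the 152 genes that fell and were lower in members than in cells without a Ptprc UMI.

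In several gene groups tied to dendritic cell function the count of calls was near that of all genes tested (3.58%, with 2.81% lower and 0.771% higher). The count alone sets these groups apart in neither direction. Of 17 tested type 2 dendritic cell genes, 1 fell and 0 rose: Csf2rb, the shared beta chain of the receptors for GM-CSF, interleukin-3 and interleukin-5. It stood at 915, 1123, 772, 536 and 595 CPM in control members and at 359, 556, 556, 511 and 305 CPM in expanded members (log2 difference -1.29 ± 0.26; adjusted p = 0.0247, and 0.0166 with 10 libraries). Reads may be shared with its close copy Csf2rb2. Irf4, Clec10a and Sirpa did not pass (adjusted p = 0.577, 0.523 and 0.0863). In edgeR 0 genes passed among 14 maturation genes (Cd83: log2 difference -0.77, adjusted p = 0.136), 18 chemokine and cytokine receptors (Ccr2: 0.14, adjusted p = 0.791), 10 glucocorticoid-response genes, 19 immediate early genes, 12 heat shock genes, 14 cell cycle genes and 14 lectin receptors. With all 10 libraries, 2 maturation genes, 1 glucocorticoid-response gene and 2 heat shock genes fell, 1 immediate early gene rose, and none of the 7 tested cell cycle genes passed. Receptors and lectins then had 1 gene each that rose and 1 and 2 that fell. The median log2 difference was -0.46 for maturation genes (12 of 14 below 0) and -0.48 for heat shock genes (11 of 12 below 0). Over all genes tested it was 0.00. Medians of the other groups here ran from -0.73 (cell cycle) to 0.21 (type 2 dendritic cell genes). With the replicate block, 5 maturation and 2 heat shock genes fell and 0 rose (8.09% and 3.33% over all genes). A shift of a whole group was not tested.

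Whether the difference between arms changed with the day could be fitted for day 4 against day 1 only, since neither expanded library of day 2 had 20 members. No gene passed in edgeR (0 of 8946; 262 at an unadjusted p under 0.05) or in DESeq2's likelihood ratio test (0; 100 at an unadjusted p under 0.05). With 10 members per library, which adds day 2, 0 of 6744 genes passed (238 at an unadjusted p under 0.05). Day 4 had 1 library per arm.

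The effect of expansion in members was compared with that in C1q cells of the same libraries, which the expanded libraries held in numbers of 2 to 26. Of 7048 genes, 22 (0.312%) differed in their response in edgeR, 5 (0.0709%) with a more positive and 17 (0.241%) with a more negative difference in members. Scd1, which makes monounsaturated fatty acids, stood at 33.2 and 19.4 CPM in control and expanded members and at 5.84 and 134 CPM in control and expanded C1q cells (difference of log2 differences -4.36 ± 0.55, adjusted p = 0.00156). With at least 10 cells of each kind, which kept 2 expanded libraries, it was the 1 gene of 9210 (0.0109%) that passed (adjusted p = 0.00689). Tnf stood at 83.0 and 138 CPM in members and at 232 and 136 CPM in C1q cells (1.65 ± 0.28, adjusted p = 0.0113, and 0.0696 with at least 10 cells). Dnase1l3, a nuclease of phagocytes, stood at 32.0 and 53.3 CPM in members and at 30.2 and 3.53 CPM in C1q cells (3.34 ± 0.70, adjusted p = 0.0464, and 0.244).

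Members were also set against MHC class II cells over the limit of 2 UMIs of Ccr7 and Fscn1 and over no other limit (Ccr7 cells), which carry transcripts of migratory dendritic cells. With at least 10 cells of each kind in all 10 libraries, 2 of 6258 genes (0.0320%) differed in their response in edgeR. With at least 20 cells of each kind, 1 expanded library (day 1 round 2) was left, and its spread is assumed to be that of the control libraries. That fit passed 43 of 8902 genes (0.483%), 27 (0.303%) with a more positive and 16 (0.180%) with a more negative difference in members, and 1 gene without the control library of day 4. The differences of log2 differences from that fit describe that library rather than the arm. The CPM below are means over all libraries of an arm, control then expanded, so these differences cannot be read from them. Lyz2, which encodes lysozyme, stood at 7525 and 2613 CPM in members and at 3108 and 715 CPM in Ccr7 cells. Its difference was 2.30 in the fit with 1 expanded library and 0.99 with 10 libraries (edgeR, adjusted p = 0.545 with 10 libraries). Cxcl3 stood at 265 and 38.0 CPM in members and at 199 and 127 CPM in Ccr7 cells. Its difference was -2.76 in the fit with 1 expanded library and -1.83 with 10 libraries (edgeR, adjusted p = 0.298 with 10 libraries). None of the 10 genes named from the fit with 1 expanded library passed with 10 libraries.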

How the data were processed

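Per the file headers, the authors made the deposited matrices with Cell Ranger 6.1.2, as raw UMI counts of 32285 genes and of hashing antibodies per barcode, with no normalization. Per the submitters' processing notes the build was mm10; the annotation is not given in the sources used here. Libraries were grouped by their labels. The members and gene lists were chosen with earlier results of these data known. Scrublet (scanpy 1.11.5) and hashtag multiplets marked doublets, which were kept in the main results and removed in an alternative; Scrublet marked 0.0584% to 2.97% of cells, so some doublets remain. HTODemux (Seurat 5.3.0, quantile 0.99) assigned 21513 cells to mice. Shares were compared by permutation tests (scipy 1.17.1, two-sided). Summed counts were tested with edgeR 4.0.16 (R 4.3.3; filterByExpr, TMM, day as covariate) with Benjamini-Hochberg adjustment over all genes, and with DESeq2 1.42.0; genes of the rule stayed out of the calls. Named were the 12 highest and 12 lowest log2 differences among genes that passed, ran the same way in 5 of 5 pairs and reached 20 CPM in an arm, outside stromal and blood cell markers; up to 4 passing genes per list; Mmp12; and 5 genes per direction in comparisons with other cells. On simulated data (8682 genes, 8 libraries) the main test recovered 15.5% of log2 changes of 1 and 74.2% of changes of 2, with 6 false calls. Same-numbered libraries share a sequencing round per the labels, and day and round were taken as pairs. Deviations of the arms correlated at 0.101 to 0.402 within pairs and at -0.349 to 0.240 between libraries of different pairs. The control library of day 2 round 1 correlated at 0.101 with its partner and at 0.108 with the expanded library of day 1 round 2. Promoters came from RefSeq. Intervals cover counting error only.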

Additional observations from a re-analysis of the deposited data

Results flagged for a closer look

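Among 96 groups of 4 to 10 samples examined, 17 had a sample that stood apart from the rest by Dixon's 95% criterion; chance alone gives about 1 such group in 20. Among expanded mice of day 2, 1 mouse had a member share of 5.26% where the next highest had 2.31%; its 4 members were counted among 76 cells.

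Several other cases concern transcripts at or near 0 in expanded members. The expanded library of day 2 round 2 was highest for Adamts4 at 6.39 CPM and for Bgn at 12.8 CPM. That of day 1 round 1 was highest for Adamts2, Pcolce2 and Rian, each at 1.62 CPM, and for Aebp1 at 6.49 CPM. Retnla reached 7.92 CPM in the expanded library of day 4 and 0 in the others. Within expanded members, day 2 round 1 was highest for Prune2 at 54.0 CPM, day 1 round 1 for Ccl9 at 287 CPM, and day 2 round 2 lowest for Timp2 at 19.2 CPM.

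In control members, the library of day 2 round 2 was highest for Ffar2 (14.3 CPM), Cdh1 (78.5 CPM) and Ciita (87.2 CPM). The library of day 4 was highest for Ccl6 (516 CPM), Gbp2 (187 CPM) and Fn1 (514.5 CPM).

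The response to expansion differed between members and C1q cells for 10 named genes, given as the difference of log2 differences, member minus C1q. More positive in members were Tnf (1.65), Rcan1 (3.31), Mid1ip1 (2.29), Dnase1l3 (3.34) and Cd180 (2.36). More negative were Scd1 (-4.36), Ly6c1 (-6.47), Tjp1 (-6.96), Gja1 (-4.81) and Mfge8 (-4.99). With at least 10 cells of each kind, which kept 2 expanded libraries, only Scd1 of these 10 genes passed. Ly6c1 changed sign there, to 2.61 (edgeR, adjusted p = 0.915). The rest kept their direction without passing (edgeR, adjusted p = 0.0580 to 0.308). Ly6c1, Tjp1 and Gja1 were above their level in control members in control cells without a Ptprc UMI. The expanded C1q sums rest on 2 to 26 cells per library.

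Against Ccr7 cells, more positive in members were Cd209d (2.54), Nupr1 (2.16), Lyz2 (2.30), Gm2a (1.42) and Plek (1.39). More negative were Adamts1 (-5.23), Samsn1 (-2.36), Cxcl3 (-2.76), Gja1 (-9.62) and Lima1 (-3.44). That fit held 1 expanded library, and with 10 libraries none of these genes passed (adjusted p = 0.123 to 0.748). The differences were then smaller, for example 1.09 for Cd209d and 0.99 for Lyz2.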

How the results depend on the processing

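The lower share of members kept its direction under every alternative run, for kept cells, MHC class II cells and mice. So did the number of members relative to cells with a Ptprc UMI. With the pairs as replicate block the differences of -3.85, -17.1 and -14.5 points had an exact p of 0.0625, the smallest that 5 pairs allow, and the mice of day 1 alone (-11.1 points) had a p of 0.1. The number of genes that passed in members was 320. It was 1150 without a filter on low counts, 1022 with the replicate block, 84 after thinning, and 0 to 762 when each library was left out. Among alternatives added later it was 646 with 10 members per library (976 with the replicate block; 258 to 862 with each library left out, among them 506, 549 and 507 without the expanded libraries of day 1 round 2, day 2 round 1 and day 2 round 2, and 560 without the control library of day 2 round 1), 174 and 589 under 0.5% fibroblast UMIs with 20 and 10 members, 0 and 71 without Cd207 and Epcam, and 1015 without the monocyte condition. Size factors of DESeq2, DESeq2 itself, sums per mouse, removal of doublets and the stricter limits stayed within 1.5 times. The sums per mouse rest on 2 expanded mice. By day, 24 genes passed without a filter instead of 0. Against C1q cells 22 became 13 after thinning, 283 without a filter, 1 with 10 cells of each and 10 to 62 with a library left out; against Ccr7 cells 43 became 28, 339, 2 and 1 to 55. Without the expanded library of day 1 round 2 the latter could not be fitted. The cause of these changes was not tested. For 44 named genes, 1025 of 1355 values kept direction and side of the threshold, 329 kept direction only and 1 changed sign: Ctsl, at a log2 difference of 0.057, without the monocyte condition. Depth limits the 2 expanded libraries of day 2, with 10 and 15 members. Nothing in the labels says that libraries of an arm were separate litters or cages, so p-values measure the spread between these pools.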
